A study of Homo sapiens with 2 samples.

Results

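The 8 cyclin-dependent kinase inhibitor genes CDKN1A, CDKN1B, CDKN1C, CDKN2A, CDKN2B, CDKN2C, CDKN2D and CDKN3 were followed among 19821 protein-coding genes in wild-type HUDEP-2 cells. For each gene, the called transcription start positions in the gene and in 30 kb on each side of it were collected, and this span is called the gene's window below. The family had been chosen by name, and for the dense group of calls at CDKN2C, so that the numbers of calls at CDKN2C are a description and carry no test. HUDEP-2 is an immortalised line of human erythroid progenitors, made from umbilical cord blood with inducible papillomavirus E6 and E7, proteins known to act on regulators of the cell cycle, the retinoblastoma family among them. PRO-cap, in which nuclei extend their nascent RNA with labelled nucleotides and the capped 5' ends are sequenced, was run on 2 biological replicates of this 1 group, with no treatment and no second cell type. The deposited lists held 26395 calls of 1 base each, 13229 forward and 13166 reverse, and named no replicate. The score of every call was 0, so that the depth behind a call is unknown and neither a level nor a spread between replicates can be given. The threshold of calling is not given in the sources used here, so that transcription too weak to be called cannot be told from none.

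Cyclin-dependent kinases drive the cell cycle, and their inhibitors hold them back. The INK4 proteins, encoded by CDKN2A, CDKN2B, CDKN2C and CDKN2D, bind the kinases CDK4 and CDK6 and so keep retinoblastoma proteins active. The CIP/KIP proteins, encoded by CDKN1A, CDKN1B and CDKN1C, bind complexes of cyclins with CDK2 and other kinases, while CDKN3 encodes a phosphatase that acts on CDK2. In the red cell lineage, progenitors divide rapidly and then leave the cell cycle as they mature, and p27, the product of CDKN1B, and p18, the product of CDKN2C, are among the inhibitors known to take part in this exit.

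The line carried calls at erythroid genes. All 12 erythroid markers had a called start, among them GATA1, KLF1 and EPOR, the receptor for erythropoietin. The call of TAL1 lay 453 bp from its start and would be lost with a window of 200 bp. Of 18 markers of lymphoid, myeloid, megakaryocyte and stromal cells 1 had a called start, the integrin gene ITGA2B. The stromal marker VIM had no called start but 2 calls inside the gene.

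A called start was present at 6 of the 8 inhibitor genes, against 44.2% of all protein-coding genes (8763 of 19821). A start was called where a call lay within 500 bp of an annotated start on the gene's strand, or, for genes without an annotated start in the promoter table, within 500 bp of either gene end and pointing into the gene. All 4 INK4 genes had a called start, and so did CDKN3. Among the 3 CIP/KIP genes only CDKN1B had one, while CDKN1A and CDKN1C had none. The promoter table listed 10 annotated starts for 7 of the genes, of which 9 had a call within 500 bp, against 40.7% of the annotated starts of coding genes (9012 of 22132). Among these 9, the call at the first start of CDKN2C may belong to the neighbouring gene FAF1. Since calls at these genes entered the choice of the family, nothing is read from either contrast.

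The windows of the 8 genes differed widely in their number of calls. CDKN2C had 17 calls, CDKN2A 13, CDKN2B 12, CDKN1B 10, CDKN2D 5, CDKN3 2, CDKN1C 1 and CDKN1A 0. The windows of CDKN2A and CDKN2B overlap and share 12 calls, so that the family had 48 distinct calls, 21 forward and 27 reverse. Spans of 10 and 50 kb on each side would have held 42 and 53 calls. The median over all protein-coding genes was 2 calls (quartiles 0 and 5, highest 28), and 66.8% of these genes had at least 1 call. CDKN2C, CDKN2A, CDKN2B and CDKN1B thus lay above the upper quartile, and CDKN2D on it. CDKN3 lay on the median, and CDKN1C and CDKN1A lay below it. Long genes have longer windows, and per 10 kb of window CDKN2C had 2.3 calls, CDKN2B 1.81, CDKN1B 1.54, CDKN2A 1.48, CDKN2D 0.8, CDKN3 0.24, CDKN1C 0.16 and CDKN1A 0, beside a median of 0.184 over coding genes. Without a spread between replicates, it cannot be said which neighbours in this order differ.

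**Figure D1:**
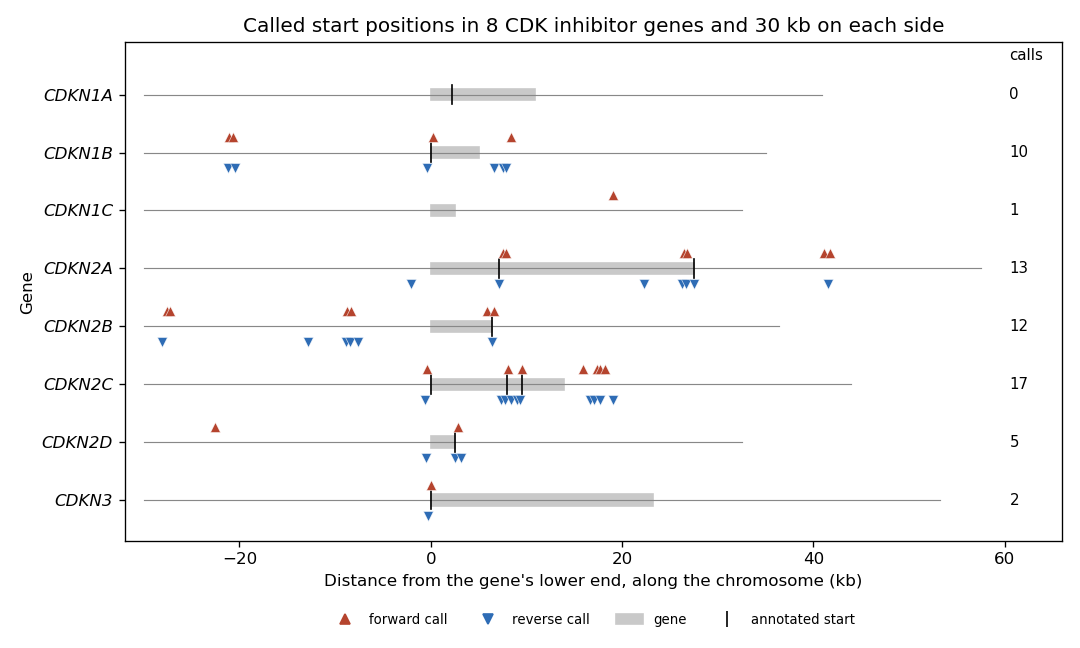
Called start positions in the window of each inhibitor gene, by distance in kb along the chromosome from the gene's lower end. Triangles above the line are forward calls and those below are reverse calls, grey boxes are genes and black ticks are annotated starts. The CDKN2C window has 17 calls, in the gene and on both sides of it, and the CDKN1A window has 0.

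**Figure D2:**
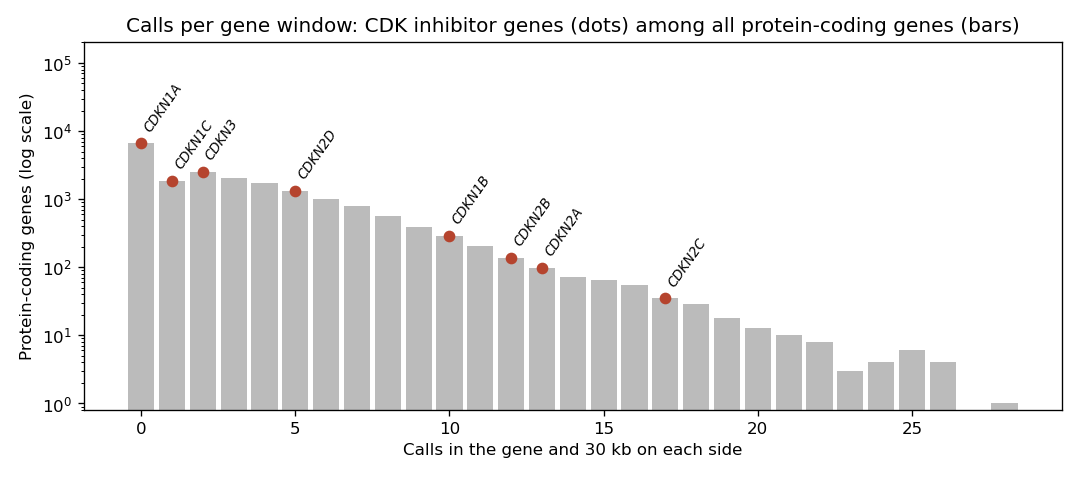
Number of protein-coding genes (log scale) by the number of calls in the gene and 30 kb on each side, with the 8 inhibitor genes as dots on their bars. CDKN1A lies at 0 calls and CDKN2C at 17, a number that 0.661% of coding genes reach or pass. The family was chosen for the calls at CDKN2C, so that this share is a description and carries no test.

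At 6 of the 9 called starts of the family the reference letters around the call could be read, and they are shown because the call lies within a few bases of where the transcript begins. Each line gives 200 bases before the annotated start and 30 from it on, 5' to 3' on the gene's strand, from RefSeq in GRCh38.p14, the build of hg38. Capitals mark the called base and the base after it. The CDKN1A start, which had no call, is shown for comparison.
CDKN2A upstream start (chr9:21995295-21995524, reverse strand): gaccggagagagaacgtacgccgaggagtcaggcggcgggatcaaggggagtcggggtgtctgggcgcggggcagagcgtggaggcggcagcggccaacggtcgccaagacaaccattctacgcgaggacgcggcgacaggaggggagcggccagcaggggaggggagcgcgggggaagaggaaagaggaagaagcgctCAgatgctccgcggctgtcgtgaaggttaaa
CDKN2A downstream start (chr9:21974828-21975057, reverse strand): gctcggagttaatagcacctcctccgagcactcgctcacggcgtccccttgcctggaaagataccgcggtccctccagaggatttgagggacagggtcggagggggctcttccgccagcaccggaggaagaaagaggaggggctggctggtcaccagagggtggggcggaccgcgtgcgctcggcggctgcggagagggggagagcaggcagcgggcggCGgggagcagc
CDKN2B start (chr9:22009276-22009505, reverse strand): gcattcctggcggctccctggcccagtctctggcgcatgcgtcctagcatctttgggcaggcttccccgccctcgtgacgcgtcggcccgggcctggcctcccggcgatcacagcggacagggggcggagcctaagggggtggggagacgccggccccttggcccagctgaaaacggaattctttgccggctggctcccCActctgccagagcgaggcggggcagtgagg
CDKN2C, the third start (chr1:50970045-50970274, forward strand): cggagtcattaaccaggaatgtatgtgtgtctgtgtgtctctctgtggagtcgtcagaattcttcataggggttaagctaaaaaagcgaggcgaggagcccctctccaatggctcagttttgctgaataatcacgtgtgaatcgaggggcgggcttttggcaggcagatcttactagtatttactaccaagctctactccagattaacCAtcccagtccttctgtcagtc
CDKN2D start (chr19:10568950-10569179, reverse strand): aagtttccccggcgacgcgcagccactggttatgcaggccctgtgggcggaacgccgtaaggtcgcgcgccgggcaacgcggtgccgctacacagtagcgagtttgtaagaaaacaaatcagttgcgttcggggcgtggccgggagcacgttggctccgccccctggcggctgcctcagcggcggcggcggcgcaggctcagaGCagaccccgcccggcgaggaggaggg
CDKN3 start (chr14:54396807-54397036, forward strand): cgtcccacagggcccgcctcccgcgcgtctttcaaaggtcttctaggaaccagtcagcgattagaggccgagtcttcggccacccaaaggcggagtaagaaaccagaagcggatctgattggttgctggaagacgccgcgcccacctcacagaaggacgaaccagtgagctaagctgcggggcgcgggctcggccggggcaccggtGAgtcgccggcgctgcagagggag
CDKN1A start, without a call (chr6:36678514-36678743, forward strand): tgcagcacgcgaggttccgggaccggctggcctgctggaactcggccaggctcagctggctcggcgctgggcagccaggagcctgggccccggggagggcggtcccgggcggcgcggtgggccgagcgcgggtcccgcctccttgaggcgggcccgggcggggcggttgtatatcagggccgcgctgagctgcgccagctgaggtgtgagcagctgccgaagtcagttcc

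The called base and the next one read CA at the upstream start of CDKN2A, at CDKN2B and at the third start of CDKN2C, 3 of 6 calls. At CDKN3 they read GA, at CDKN2D GC and at the downstream start of CDKN2A CG. Over the 6849 calls in the promoters of coding genes, 37.0% read CA beginning at the called base, and 1.31% read CA ending at it. The dinucleotide CA, with transcription beginning at its A, is a usual initiator in human promoters. Both strands showed this, with 37.2% of forward and 36.8% of reverse calls beginning a CA. In the same set, 20.8% of calls lay 1 base before the annotated start and 12.3% on it. Positions and distances are given as deposited and are therefore good to about 1 base. Whether the deposited positions carry a shift of 1 base was not tested.

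The 9 called starts lay a median of 6 bp inside the gene, beside a median of 3 bp over called starts of coding genes. The calls of CDKN2A at its upstream start and of CDKN2B lay 1 base before the annotated start, and those of CDKN2D, CDKN3 and the third start of CDKN2C lay 3, 6 and 8 bp inside. These 5 of 9 were within 10 bp, against 44.5% of called starts of coding genes. The other calls lay farther off, 19 bp inside at the downstream start of CDKN2A, 100 bp inside at the second start of CDKN2C, 250 bp inside at CDKN1B and 392 bp before the first start of CDKN2C. A divergent partner, that is an opposite-strand call 0 to 300 bp upstream that points the other way, was present at 5 of the 9, against 50.3% of called starts of coding genes. The partner lay 154, 192 and 261 bp away at the 3 starts of CDKN2C, 168 bp away at CDKN2B and 279 bp away at CDKN3, and the median over coding genes was 154 bp. The partner at 192 bp, at the first start of CDKN2C, was the call at the start of the neighbouring gene FAF1. At CDKN2D, at the downstream start of CDKN2A and at CDKN1B the nearest upstream call of the other strand lay 325, 497 and 617 bp away. The upstream start of CDKN2A had none within 1000 bp. With 9 starts, both shares lay near those of coding genes, and nothing particular to the family is read from them.

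CDKN2C encodes p18, an INK4 protein. The gene lies on the forward strand at chr1:50960745-50974634 (gene ID 1031), and its 17 calls, 7 forward and 10 reverse, formed 3 groups when calls were chained over gaps of at most 5 kb. Chaining over 10 kb gave 1 group of 17, and merging calls within 300 bp of each other gave 11 sites. The first of the 3 groups was a divergent pair between FAF1, which encodes Fas-associated factor 1 and runs the other way, and CDKN2C. Its reverse call at 50960161 lay 106 bp inside FAF1. Its forward call at 50960353 lay 86 bp outside the annotated FAF1 start and 392 bp before the first annotated start of CDKN2C, so that an upstream antisense transcript of FAF1 and a start of CDKN2C cannot be told apart here.

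The middle group of 7 calls lay inside the gene and spanned 2.12 kb around the second and the third annotated starts, which are 1.54 kb apart. Forward calls at 50968806 and 50970253 lay at these starts. Reverse calls at 50968131, 50968545, 50969161, 50969712 and 50970099 lay before and between them, and the calls at 50968545 and 50970099 were the divergent partners. The group thus held 2 forward and 5 reverse calls with gaps of 154 to 551 bp. A different call lay within 500 bp of each of the 3 annotated starts of CDKN2C. The call at the first may belong to FAF1 and was lost with a window of 200 bp. Of coding genes with at least 3 annotated starts, 2.96% (40 of 1353) had at least 3 called separately. This share does not allow for the distance between a gene's starts. CDKN2C was chosen for its calls, so that nothing is read from the share.

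The last group lay beyond the 3' end of CDKN2C, outside every annotated gene. It held 8 calls, 4 forward and 4 reverse, from 50976658 to 50979768, which is 2.02 to 5.13 kb past the gene's end. Forward calls lay at 50976658, 50978132, 50978430 and 50978976 and reverse calls at 50977409, 50977856, 50978457 and 50979768, with gaps of 27 to 792 bp. One pair, at 50977856 and 50978132, was divergent at 276 bp, and the calls at 50978430 and 50978457 faced each other across 27 bp. Of 11627 such groups genome-wide, 133 (1.14%) had at least 8 calls and 240 (2.06%) at least 7, the median group had 2 calls and the largest 16. Since CDKN2C was chosen for its calls, these shares are a description and carry no test. No other call lay in the window, and the number was still 17 with 50 kb on each side. Among all calls used, no 2 of the same strand lay closer than 251 bp, which limits how many calls a group can hold. Whether this spacing comes from the caller was not tested.

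**Figure D3:**
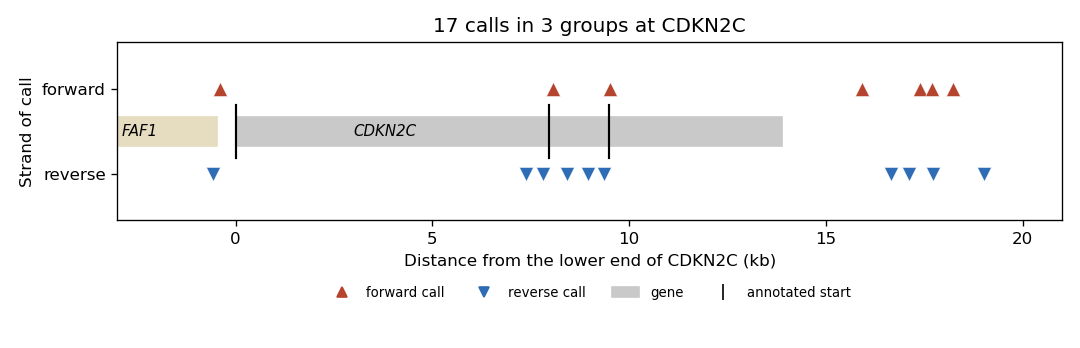
Calls around CDKN2C by distance in kb from the gene's lower end, forward calls above and reverse calls below. The 3 groups hold 2 calls at the FAF1 side, 7 calls around the second and the third annotated starts (black ticks) and 8 calls beyond the end of the gene.

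The starts of CDKN2C differed in base composition as well. In the 300 bases from 250 before to 50 after the start, the second annotated start had 71.3% G and C and 37 CG dinucleotides, above the upper quartile of coding promoters (70%). The first had 46.3% with 8 and the third 49.3% with 11, below the lower quartile (53%). The GC box GGGCGG, a site of SP and KLF factors, occurred 6 times at the second start, once at the third and not at the first. The E-box CACGTG, a site of basic helix-loop-helix factors such as MYC and USF, was present at the first and the third start. These 300 bases are set on the annotated starts and not on the calls. The calls at the first and the second start, 392 bp before and 100 bp inside, lay outside them. The letters around these 2 calls are therefore not described here.

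CDKN2A and CDKN2B lie next to each other on the reverse strand of chromosome 9. CDKN2A (chr9:21967752-21995324, gene ID 1029) makes 2 proteins from separate first exons, ARF, an inhibitor of the ubiquitin ligase MDM2, from the upstream start, and the INK4 protein p16 from the downstream start. Both starts were called, by reverse calls at 21995325 and 21974838 that lie 20.5 kb apart. At least 2 separately called starts were found in 12.1% of the coding genes with several annotated starts (489 of 4036). That share takes in genes whatever the distance between their starts, so that it is no like comparison for CDKN2A. CDKN2B (chr9:22002903-22009313, gene ID 1030), which encodes the INK4 protein p15, was called at 22009306, which lay 13981 bp from the upstream call of CDKN2A. All 3 starts of this locus thus had a call on the gene's strand.

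The other calls of the locus lay mostly around these starts. Forward calls at 21975335 and 21975619 lay 478 and 762 bp upstream of the p16 start and ran away from it. Inside CDKN2A, 774 to 1316 bp downstream of the ARF start, 2 divergent pairs lay at 21994008 with 21994182 and at 21994421 with 21994550. Between their calls were 174 and 129 bp. The first of these calls lay 20 bp inside the noncoding gene LOC124902130, and the last 241 bp before the annotated start of CDKN2B-AS1. CDKN2B-AS1 encodes ANRIL, a long noncoding RNA that runs against CDKN2A and CDKN2B. At CDKN2B, forward calls lay 169 bp upstream of the start, at 22009474, and 480 bp inside it, at 22008825. Single reverse calls lay at 21990066, inside CDKN2A and LOC124902130, and at 21965646, 2.11 kb beyond the 3' end of CDKN2A and outside genes. The promoter of the ARF start had 63.3% G and C, that of the p16 start 69% and that of CDKN2B 67.3%.

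**Figure D4:**
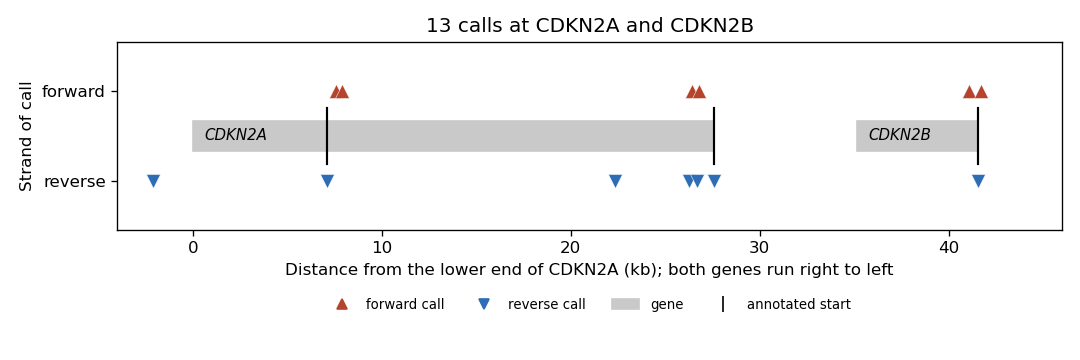
The 13 calls at CDKN2A and CDKN2B by distance in kb from the lower end of CDKN2A, forward calls above and reverse calls below. A reverse call lies at each of the 3 annotated starts (black ticks), and forward calls lie near all 3. Those near the upstream start of CDKN2A lie downstream of it, inside the gene.

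CDKN2D, which encodes the INK4 protein p19, is the shortest of the genes (2.52 kb, chr19:10566460-10568979, reverse strand, gene ID 1032). Its start was called at 10568976, and a forward call at 10569301 lay 322 bp upstream of the annotated start and ran away from it. A second reverse call at 10569671 lay 692 bp before the gene and outside genes. The remaining 2 calls of its window were starts of neighbours. KRI1 had a call 1 base before its start, at 10566011, in the space just past the 3' end of CDKN2D, and ATG4D, which encodes an autophagy protease, had one at 10543917. No call lay inside CDKN2D apart from its start.

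CDKN3 (chr14:54397007-54420218, forward strand, gene ID 1033) had the simplest pattern of the called genes. Its forward call at 54397013 and a reverse call at 54396734 formed a divergent pair of 279 bp. There was no other call in the 83.2 kb of its window, and the next call above the gene lay 68.8 kb past its end, at GMFB.

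CDKN1B encodes p27 and lies on the forward strand at chr12:12717368-12722369 (gene ID 1027). Its forward call at 12717618 lay 250 bp inside the annotated start, and a reverse call at 12717001 lay 367 bp before the gene. The reverse call pointed into GPR19, an orphan receptor gene, 245 bp inside its upper end, and was counted as the called start of GPR19. It was also the nearest reverse call upstream of the CDKN1B call, 617 bp away. A start of GPR19 and an upstream antisense transcript of CDKN1B thus cannot be told apart here. Since its forward call was more than 200 bp from the start, CDKN1B counted as uncalled with a window of 200 bp. Inside GPR19, 20.4 to 21.2 kb below CDKN1B, 4 calls lay within 0.737 kb. They were a divergent pair at 12696200 and 12696269, which are 69 bp apart, a forward call at 12696700 and a reverse call at 12696937. A further 4 calls lay 1.65 to 3.42 kb past the gene, reverse calls at 12724017, 12724928 and 12725263 in and before the noncoding gene LOC105369663, and a forward call at 12725794, which lay 123 bp before the start of APOLD1. The 10 calls of the window thus fell into 3 groups of 4, 2 and 4 calls.

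CDKN1C, which encodes p57 and lies in an imprinted region (chr11:2883218-2885775, gene ID 1028), had no call in or at the gene. The 1 call of its window, forward at 2902264, lay 16.5 kb above the gene and 14 bp before an annotated start of the neighbour SLC67A1. Below the gene the nearest call lay 183 kb away, inside KCNQ1. CDKN1C was among the genes without a promoter entry, so that both gene ends were searched.

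CDKN1A encodes p21, an inhibitor known to be induced when DNA is damaged. The gene lies at chr6:36676463-36687332 (gene ID 1026), and its window of 70.9 kb had 0 calls. The nearest calls in the lists lay 82.1 kb below the gene, at the start of the splicing factor gene SRSF3, and 187 kb above it, inside C6orf89 and PPIL1, so that 280 kb around CDKN1A had no call. The noncoding neighbours PANDAR and DINOL were thus without a call as well. The CDKN1A promoter had the highest share of G and C of the 10 (74.3%) and 4 GC boxes.

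Short sequence motifs were searched on both strands of the 10 promoters, each of 300 bases around the annotated start. The calls at CDKN1B and at the first and the second start of CDKN2C lay outside these bases. GGGCGG was found in 7 of 10, against 56.3% of 22132 promoters of coding genes, and CCAAT, the site of NF-Y, in 4 of 10, against 34.6%. The CCAAT promoters were those of CDKN1B with 3 sites, CDKN3 with 2, and CDKN2D and the third start of CDKN2C with 1 each. CACGTG was found in 2 of 10 against 8.34%, both at CDKN2C. TTTGAA, the core of the cell cycle element CHR, was found in 1 of 10 against 12.4%, in the CDKN3 promoter, 170 bp upstream of the start. TATAAA (9.46% of promoters), the GATA motif AGATAA (7.88%), the KLF1 motif CCACACCC (3.42%), the E2F motifs TTTCCCGC (2.0%) and TTTGGCGC (0.818%) and the ETS motif CCGGAAG (12.8%) were found in none of the 10. Overlapping matches were counted separately, as for neighbouring GC boxes at CDKN1A and CDKN2C. A match is a run of letters and no measured site.

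The partners and regulators of the inhibitors were mostly called. Of 62 genes in 4 cell cycle lists, 56 had a called start (90.3%, 95% Wilson interval 80.5 to 95.5, counting error only), beside the 44.2% of coding genes. In the list of cell cycle kinases and cyclins, which also holds the CDK-activating kinase and its assembly factor, 14 of 15 were called (93.3%, 70.2 to 98.8), among them the cyclins CCNA2, CCNB1, CCNB2 and CCND1, and CCNA1, a cyclin known from the germ line, was not. In the list of the retinoblastoma and E2F proteins that act below the kinases, 13 of 16 were called (81.2%, 57.0 to 93.4), among them E2F1, E2F2, E2F3 and E2F4. LIN54, a DNA-binding subunit of the MuvB complex, RB1, the retinoblastoma gene itself, and its relative RBL2 were not. Their windows had 12, 3 and 4 calls, of which 3, 1 and 1 lay inside the gene.

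All 15 genes of inhibitor turnover and of kinase phosphorylation were called (79.6 to 100), among them the phosphatases CDC25A, CDC25B and CDC25C, which activate the kinases, and CKS1B, which helps the ligase subunit SKP2 to recognise p27. Of regulators upstream of the inhibitors 14 of 16 were called (87.5%, 64.0 to 96.5), among them the Polycomb genes CBX7 and EZH2, known for repression of the CDKN2A locus, the insulator protein gene CTCF and the forkhead factor FOXO1, a family known to activate CDKN1B. BMI1, another Polycomb gene, and TP73, which encodes a transcription factor, were not. Their windows had 9 calls each, none of them inside the gene. The 56 calls lay within 101 bp of the start, 31 of them within 10 bp. Genes of cell division were known to be called often in these data when the lists were made, and no test was made.

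**Figure D5:**
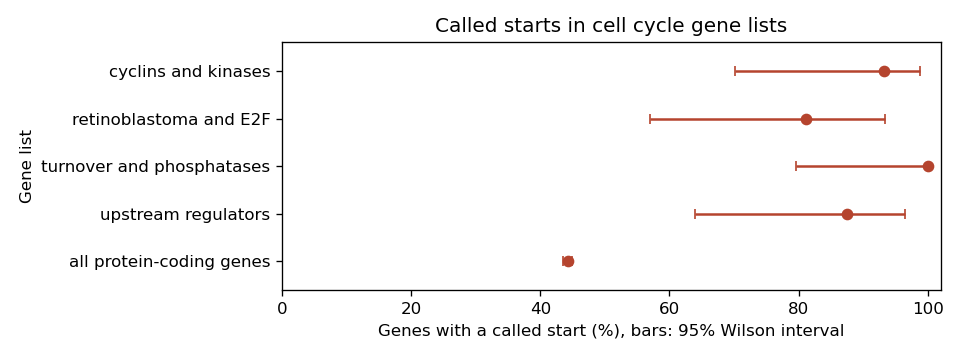
Share of genes with a called start in 4 cell cycle lists and in all protein-coding genes, in percent, with 95% Wilson intervals as bars. The lists lie between 81.2% and 100%, and all coding genes at 44.2%. The bars give counting error only. The lists were made when genes of cell division were known to be called often in these data, and no test was made.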

How the data were processed

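PRO-cap libraries of nuclear RNA from wild-type HUDEP-2 cells were made in 2 biological replicates. The build hg38 and the tools BWA 0.7.16a, SAMtools 1.17, deepTools 3.5.4 and Picard are named, per the submitters' processing notes. Caller settings, and whether replicates were pooled, are not given in the sources used. The authors deposited a list of positions per strand, which hold other values than measurements, namely 1-base coordinates, and a score that the authors deposited as 0 for every call.

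Calls on chromosomes 1 to 22 and X were used (26332), and 63 others were left out. Genes came from RefSeq (GRCh38.p14), of which 679 entries on other scaffolds were removed. Annotated starts and strands came from a promoter table that covers 15812 of 19821 coding genes and 7 of the 8 inhibitor genes. For the other coding genes both ends were searched, which gives them more room for a call.

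The inhibitor genes, lists, motifs and windows were chosen with earlier results of these data known. All 8 genes and every call were named, with neighbours that had a called start in a window. For each cell cycle list the genes on a side with 5 or fewer were named, otherwise the first 4 by alphabet. The cell type markers named were chosen after their values were seen. Some items are not reported here. The planned comparison of proteins was not run. Steps were tested on simulated data, with pandas 2.3.3 and statsmodels 0.14.6. Alternatives were start windows of 200 and 1000 bp, flanks of 10 and 50 kb, partner distances of 150 and 500 bp, chaining gaps of 2 and 10 kb and calls merged into sites.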

Additional observations from a re-analysis of the deposited data

How the results depend on the processing

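Of 23 alternative settings over 10 results, 18 gave a count within 1.5 times of the reported one, or a share within its interval. With start windows of 200 and 1000 bp, 5 and 6 inhibitor genes had a called start, and the share of all coding genes was 42.3% and 45.6%, outside the narrow interval around 44.2%. Counting calls within 300 bp of each other as 1 site gave 11 sites in the CDKN2C window in place of 17 calls. With a partner distance of 150 bp, 0 of the 9 called starts had a divergent partner, since the nearest partner lay 154 bp away. Chaining over 10 kb joined the calls at CDKN2C into 1 group of 17. No paired analysis was possible because the call lists name no replicate and there is 1 group, and for the same reason no replicate could be left out. The depth behind a call is unknown, so that a gene without a call is not shown to be silent.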
